A study of Mus musculus with 34 samples.

Results

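The complement and coagulation genes of mouse liver were taken as a list of 44 genes, which covers the C1q chains, lectins and proteases that start complement, the terminal components, 2 receptors, the clotting factors, fibrinogen, and the inhibitors of both cascades. For each gene the probe set that carried its symbol alone and had the highest mean signal over all arrays stood for the gene. This gave values for 41 of the 44 genes, out of 18193 genes of the array with such a probe set, and all 41 lay in the upper 60% of probe sets by mean signal and were tested among 13099 genes. C3, the central complement protein, Cfd (factor D) and Cpb2 (a carboxypeptidase that slows fibrinolysis) were not analysed here. The 44 genes were divided by the cells that are known as their main source into 31 hepatocyte genes, 6 genes of macrophages and other myeloid cells, and 7 genes of stromal, endothelial or several cell types, of which 29, 6 and 6 were tested.

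RNA of 34 liver samples was measured, 1 array per sample. At week 20 there were 5 livers of Pdgf-c Tg mice fed 0.06% peretinoin, an acyclic retinoid, 5 basal-diet livers of Pdgf-c Tg mice, and 5 livers of non-transgenic wild-type (WT) C57/B6 mice. At week 48 there were 5 tumours from Pdgf-c Tg mice, 5 livers of Pdgf-c Tg mice fed 0.06% peretinoin, 5 basal-diet livers of Pdgf-c Tg mice and 4 WT livers. The Tg mice carry a transgene for platelet-derived growth factor C, the diets began at weaning at week 4, and in this model fibrosis is studied at week 20 and tumours at week 48. The sources used here give neither the promoter of the transgene, nor the sex of the mice, nor pooling, nor whether tumours and livers share mice. The labels name peretinoin for no WT liver. Nor do they say that the arrays of a group came from separate mice, so the p-values measure the spread between these samples.

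Complement is a chain of blood proteases that is started by antibody-bound C1q, by lectins that bind microbial sugars or by spontaneous activation of C3, and that ends in a pore of C5b to C9 in the target membrane. Coagulation is a second such chain, started by tissue factor or by the contact system, in which thrombin turns fibrinogen into fibrin, and plasmin dissolves it again. Hepatocytes make most of these plasma proteins, whereas C1q and properdin come mainly from macrophages and other myeloid cells, and tissue factor and thrombomodulin sit on stromal and endothelial cells. Several of the hepatocyte genes are acute phase genes, which interleukin 6 induces through STAT3 and C/EBP factors, and HNF1 is a hepatocyte factor that binds many of their promoters.

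The 250 bases before the start sites of the fibrinogen chains and of 2 C1q chains are printed because the fibrinogen genes are neighbours on chromosome 3 whose chains form fibrinogen, the C1q genes are neighbours on chromosome 4 whose chains form C1q, and the results turn on them as the hepatocyte and the macrophage side of the list. They are RefSeq sequences of build GRCm38.p6 (mm10), and 34 of the 44 genes matched the promoter table with 35 promoters, C1qa not among them. Capitals in the fibrinogen promoters mark matches on either strand to the short site of HNF1 (GTTAAT), an interleukin 6 response core (CTGGGAA or CTGGAAA), a C/EBP site (TTGCNNAA) and a TATA box (TATAAA). Capitals in the C1q promoters mark the core of PU.1, the lineage factor of macrophages (GAGGAA). None of the marked matches overlap. Each set of letters is marked only in its own promoters, so GAGGAA stays in lower case in the fibrinogen promoters and the other letters do in the C1q promoters.
Fga, chr3:83025903-83026152, plus strand: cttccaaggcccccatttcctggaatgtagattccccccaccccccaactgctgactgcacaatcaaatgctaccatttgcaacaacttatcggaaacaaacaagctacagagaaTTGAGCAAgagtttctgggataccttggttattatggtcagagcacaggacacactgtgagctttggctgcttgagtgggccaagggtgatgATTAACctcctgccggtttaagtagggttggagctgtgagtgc
Fgb, chr3:83049864-83050113, minus strand: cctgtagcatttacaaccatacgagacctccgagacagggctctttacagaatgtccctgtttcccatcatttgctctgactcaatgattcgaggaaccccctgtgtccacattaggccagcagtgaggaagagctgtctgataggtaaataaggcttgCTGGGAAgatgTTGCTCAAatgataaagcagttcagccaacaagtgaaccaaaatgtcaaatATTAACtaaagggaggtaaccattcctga
Fgg, chr3:83007474-83007723, plus strand: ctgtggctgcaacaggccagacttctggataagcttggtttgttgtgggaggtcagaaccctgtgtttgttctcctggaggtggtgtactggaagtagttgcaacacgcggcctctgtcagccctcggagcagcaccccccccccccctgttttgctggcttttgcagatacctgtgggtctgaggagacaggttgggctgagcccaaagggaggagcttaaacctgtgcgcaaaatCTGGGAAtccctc
C1qb, chr4:136886201-136886450, minus strand: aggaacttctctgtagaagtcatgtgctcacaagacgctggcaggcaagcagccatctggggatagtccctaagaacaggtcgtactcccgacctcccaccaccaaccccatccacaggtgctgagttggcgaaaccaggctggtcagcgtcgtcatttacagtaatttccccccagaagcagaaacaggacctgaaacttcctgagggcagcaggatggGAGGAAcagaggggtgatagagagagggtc
C1qc, chr4:136892915-136893164, minus strand: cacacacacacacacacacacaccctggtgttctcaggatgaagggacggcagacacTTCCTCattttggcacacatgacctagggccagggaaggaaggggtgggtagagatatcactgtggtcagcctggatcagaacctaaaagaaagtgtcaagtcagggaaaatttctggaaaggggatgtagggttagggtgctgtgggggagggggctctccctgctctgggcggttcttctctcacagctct
The HNF1 letters began 43 bases before the start of Fga and 29 bases before the start of Fgb, and were not found in the window of Fgg. The C/EBP letters began 135 bases before Fga and 80 bases before Fgb, and CTGGGAA began 91 bases before Fgb and 13 bases before Fgg. The PU.1 core began 30 bases before C1qb and 193 bases before C1qc. No TATAAA and no CTGGAAA was found in the fibrinogen windows. Among 32851 promoters of this length, 6.43% held GTTAAT, 9.1% held CTGGGAA, 6.54% held CTGGAAA, 9.56% held TTGCNNAA, 12.4% held TATAAA and 23.3% held GAGGAA. Of the 26 promoters of hepatocyte genes on the list, 5 held GTTAAT, 4 held CTGGGAA, 1 held CTGGAAA, 7 held TTGCNNAA, 1 held TATAAA and 2 held GAGGAA. Of the 5 promoters of myeloid genes on the list, 1 held GTTAAT, 0 held CTGGGAA, 2 held CTGGAAA, 0 held TTGCNNAA, 1 held TATAAA and 2 held GAGGAA. These matches describe letters in a window and say nothing about binding.

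The median signal of an array lay between 71.5 and 95.7 at a common trimmed mean. The 11 hepatocyte markers tested had a mean log2 signal between 13.5 and 14.4 on every array, tumours included. On 6 arrays the skeletal muscle or pancreatic acinar markers exceeded their median over the arrays by at least 3 log2 units, and these are peretinoin-fed Tg replicates 3 and 5 and Tg replicate 5 at week 20, and peretinoin-fed Tg replicate 1, Tg replicate 4 and WT replicate 4 at week 48. Results that these arrays change are given with and without them. No 2 arrays were duplicates, with a highest correlation of 0.982. In these bulk samples, fewer cells of a type and less RNA per cell cannot be told apart.

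The first question was how the transgene shifted the list against WT liver at the stage of fibrosis and at the stage of tumours. On the deposited scale 10 of 29 hepatocyte genes fell in Tg livers at week 20 (by 0.25 to 0.92 on the log2 scale) and 9 at week 48 (by 0.23 to 0.62), and C3ar1, F3 and Pros1 rose at both weeks. At week 20, 4 of the 41 genes were called higher and 11 lower in Tg livers, at a Benjamini-Hochberg adjusted p under 0.05 in limma's moderated test across all genes. Of all 13099 genes 15.8% were called higher and 7.87% lower, 23.7% in all. The higher genes were C3ar1, F3, Pros1 and Thbd, and the lower ones Cfp, Mbl1, Masp2, C9, C8a, C8g, Klkb1, Fgg, Fgb, Serpinc1 and F2. Week 48 had 4 higher and 10 lower calls in Tg livers, against 14.2% and 6.58% of all genes and 20.8% in all. Here C1qa, C3ar1, F3 and Pros1 were higher, and Masp2, C8g, Masp1, Fgg, F2, Plg, Fga, Fgb, Cfi and Serpinc1 were lower. Masp1 is counted by its brightest probe set, and 2 of its other probe sets were called higher at week 48. The Tg and WT ranges did not overlap for 4 genes above and 10 below at week 20 (11.5% and 4.65% of all genes) and for 5 above and 11 below at week 48 (13.9% and 7.54%).

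By producing cell, 0 of 29 hepatocyte genes were called higher and 10 lower at week 20, and 27 of the 29 had a log2 change below 0. Their median log2 change of signal + 16 was -0.22 in Tg against WT livers, beside 0.06 over all genes tested. At week 48, 0 were called higher and 9 lower, 26 of 29 were below 0, and the median was -0.23 beside 0.04 over all genes. This shift was small enough to depend on the scaling of the arrays. Quantile normalisation brought the median of the 29 genes to -0.02 at week 20, with 3 called higher and 3 lower, and to -0.05 at week 48, with 0 called higher and 2 lower. This setting makes the values at each rank alike on every array. It can thus remove a small shift of very bright probe sets, such as those of fibrinogen, F2, Plg and Serpinc1, whatever its origin. Median centring gave -0.35 and 14 called lower at week 20, where it moved the median of all genes to -0.07, and -0.15 and 2 called lower at week 48, where it moved the median of all genes to 0.12. Without the arrays that carry another tissue, 12 of the 29 were called lower at week 20 and 3 at week 48. That fit called 23.4% of all genes at week 20 and 17.6% at week 48, and 66.2% and 73.8% of these calls were higher. Quantile normalisation called 21.3% and 20.8% of all genes, with 54.7% and 65% of the calls higher. Median centring called 23.2% and 20.2%, with 46.7% and 84.5% of the calls higher. Of these 11 hepatocyte markers, which hold no complement or coagulation gene, 4 were called lower at week 20 and 5 at week 48, with medians of -0.21 and -0.31. The 6 myeloid genes had median changes of 0.65 at week 20 and 0.94 at week 48. The 6 genes of stromal, endothelial or several cells (C1ra, Masp1, Serping1, F3, Pros1 and Thbd) had medians of 0.32 and 0.17. At both weeks F3, Pros1 and Thbd were above 0 and C1ra, Masp1 (by its brightest probe set) and Serping1 below 0, so no gene sits at these medians. Of the 6, 3 were called higher and 0 lower at week 20, and 2 higher and 1 lower at week 48.

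**Figure D1:**
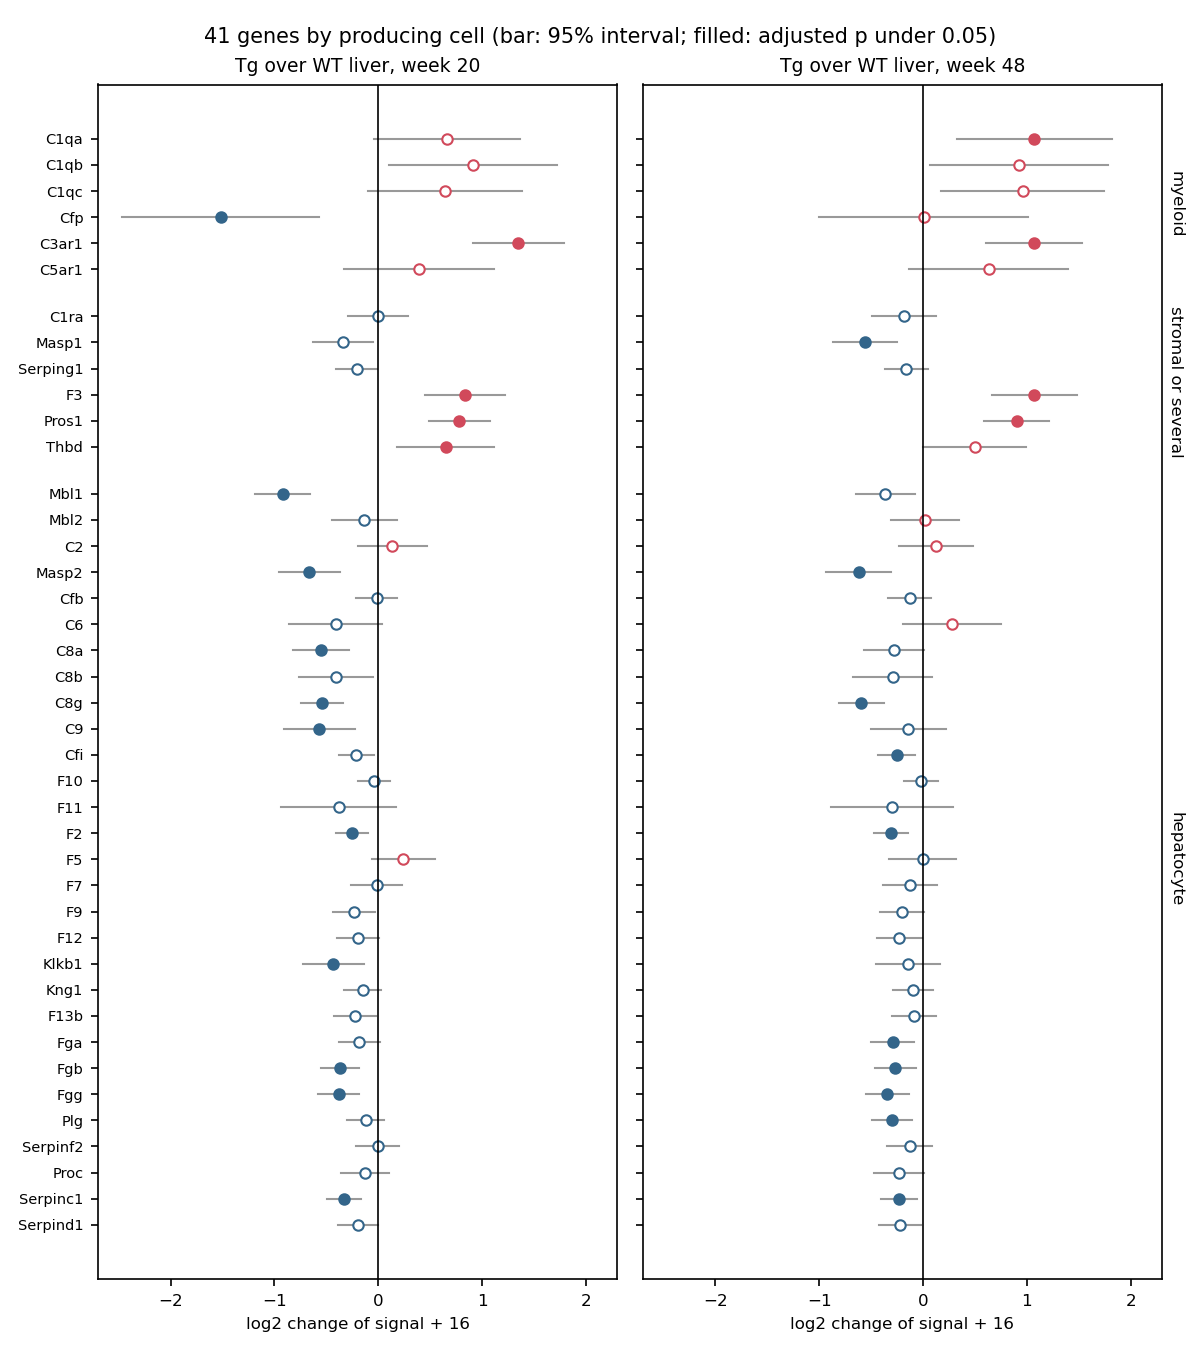
Log2 change of signal + 16 in Tg over WT liver at week 20 (left) and week 48 (right) for the 41 genes, grouped by producing cell; points are the estimates, filled where the adjusted p is under 0.05, and bars are 95% intervals. Most hepatocyte genes sit a little left of 0, 27 of 29 at week 20 and 26 of 29 at week 48 (16 and 19 of 29 after quantile normalisation), while C3ar1, F3 and Pros1 sit to the right at both weeks and Cfp sits far left at week 20 and at 0 at week 48.

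C1qa, C1qb and C1qc encode the 3 chains of C1q, the recognition protein of the classical pathway, which in liver is made by macrophages. At week 20, C1qa had signals of 3388.6, 2897.4, 3143.8, 2655 and 2844.2 in Tg livers and of 1726.6, 1886.4, 1422.7, 2992.7 and 1653.4 in WT livers. Replicate 4 of the WT livers reached into the range of the Tg livers, and the other 4 lay below every Tg liver. C1qb followed the same order, with 3831.6, 3292.9, 3730.7, 2970.3 and 3409.3 in Tg livers and 1697.1, 1543.3, 1437.8, 3345.5 and 1570 in WT livers. C1qc had 2679.8, 2420.4, 2429.1, 2187 and 2275.6 in Tg livers and 1410, 1730.7, 1152.2, 2286 and 1288.2 in WT livers, and WT replicate 4 was again the only one within the Tg range. The log2 changes of 0.66 for C1qa, 0.91 for C1qb and 0.64 for C1qc did not pass (adjusted p = 0.167, 0.0939 and 0.205). Without the arrays that carry another tissue, all 3 passed with 0.68, 0.91 and 0.66 (adjusted p = 0.0215, 0.00954 and 0.0371). Of those arrays only Tg replicate 5 is in these 2 groups, and leaving it out alone called none of the 3. A fit of the 10 arrays of these 2 groups called all 3 (adjusted p = 0.0133, 0.00552 and 0.0129). The other 2 probe sets of C1qb had changes of 0.30 and 0.13 that did not pass. WT replicate 4 also had the highest mean log2 signal of the WT livers in the resident Kupffer cell markers, 10.4 against 9.72 to 10.1 in the others, and in the pan-macrophage markers, 10.3 against 9.86 to 10.1.

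At week 48, C1qa had signals of 3580.6, 3293, 3644.9, 3143.6 and 6033.8 in Tg livers and 1030.3, 2335.8, 1670.6 and 2662.9 in WT livers, and the groups did not overlap. It rose by 1.07 ± 0.37 (adjusted p = 0.0345), and the call was lost in 4 of the 9 fits that left out 1 array, WT replicates 1 and 3 and Tg replicates 1 and 5, with 0.80 (adjusted p = 0.158) without WT replicate 1. C1qb had 3581.5, 3017.3, 3406, 3388.4 and 5603.3 in Tg livers and 1052.5, 2628.5, 1780.1 and 2926.1 in WT livers. C1qc had 3183.2, 3073.4, 3539.6, 2536.5 and 5684.2 in Tg livers and 919.3, 2285.6, 1780.5 and 2647.6 in WT livers, where Tg replicate 4 lay below the highest WT liver. Their changes of 0.92 and 0.96 did not pass (adjusted p = 0.12 and 0.0746), and both passed without the arrays that carry another tissue, with 1.15 and 1.26 (adjusted p = 0.00582 and 0.00105). The other 2 probe sets of C1qb were called higher, with 1.18 and 1.01. Tg replicate 5 held the highest signal of all 3 chains and WT replicate 1 the lowest. The same arrays stood apart in the pan-macrophage markers, at a mean log2 signal of 11.6 in Tg replicate 5, against 9.43 in WT replicate 1, beside 10.6 to 11.04 in the other Tg livers and 9.85 to 10.2 in the other WT livers. The part of macrophage content in the C1q values was not tested.

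Of the receptors, C3ar1 was higher in Tg livers at both weeks. C3ar1, the receptor for the anaphylatoxin C3a on myeloid cells, had signals of 453, 485.6, 391.4, 459.8 and 446.7 in Tg livers at week 20 and of 138.4, 181.3, 165.7, 143.1 and 208.5 in WT livers. Every Tg liver was above every WT liver, and C3ar1 rose 2.54-fold (1.35 ± 0.21, adjusted p = 1.78e-05). At week 48 the signals were 461, 425.2, 583.4, 364.1 and 651.6 in Tg livers and 125.3, 287.4, 255 and 270.3 in WT livers, again without overlap, a 2.09-fold rise (1.06 ± 0.23, adjusted p = 0.00088). Both calls held under each of the 10 alternatives run and each left-out array, and the 2 other probe sets of C3ar1 were called higher at both weeks. C5ar1, the receptor for C5a, had means of 46.3 ± 5.69 in Tg and 32.8 ± 12.1 in WT livers at week 20 (SD, n = 5 and 5) and of 77.2 ± 39.6 in Tg and 48.6 ± 39.0 in WT livers at week 48 (n = 5 and 4). These low signals overlapped between the groups, and the changes of 0.39 and 0.63 did not pass (adjusted p = 0.462 and 0.245).

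Properdin, encoded by Cfp, stabilises the C3 convertase of the alternative pathway and is made by neutrophils, monocytes and macrophages rather than hepatocytes. At week 20 it fell in Tg livers, while the other 5 myeloid genes had changes above 0. Cfp had signals of 301.4, 192.4, 285.5, 192.7 and 165.6 in Tg livers and 562, 730.2, 519.2, 1282.9 and 469.1 in WT livers, with every Tg liver below every WT liver. It was 2.86-fold lower (-1.52 ± 0.47, adjusted p = 0.0165). The call was lost without WT replicate 4, which had the highest signal (-1.28, adjusted p = 0.0617), and with the mean of both probe sets (-0.47, adjusted p = 0.192). The dimmer probe set had changes of 0.58 at week 20 and -0.62 at week 48, the other way at each week, that did not pass. At week 48 the signals were 538.3, 418.3, 562.4, 325.3 and 1170.7 in Tg livers and 293.5, 663.1, 547.6 and 814.9 in WT livers, which overlapped, with a change of 0.0065 ± 0.49. The difference between the weeks, 1.52 ± 0.68, did not pass (adjusted p = 0.329).

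The markers of resident Kupffer cells, the liver's own macrophages, were also lower at week 20. At that week 5 of 7 were called lower in Tg livers (median -2.28), and at week 48 only Cd163 was, with a median of -0.36 over the 7. Clec4f, a lectin of Kupffer cells, had signals of 351.9, 282, 391, 133.7 and 129.7 in Tg livers and 2108.7, 2008.3, 1884.1, 3167 and 2132.8 in WT livers at week 20, and of 1222.6, 977.5, 1853.3, 329.7 and 3490.6 in Tg livers and 1190.7, 2686.6, 2430.4 and 2613.5 in WT livers at week 48. Cd163, a scavenger receptor, had 62.3, 68.2, 76.1, 54 and 36.1 in Tg livers and 897.6, 983, 770.6, 854.2 and 708.4 in WT livers at week 20, and 57.1, 5.4, 21.4, 60.3 and 53.5 in Tg livers and 366, 1010.9, 1273.4 and 820.9 in WT livers at week 48. The markers of recruited monocytes and macrophages moved the other way, with 8 of 8 called higher at both weeks (medians 1.73 and 1.97). Of 9 pan-macrophage markers, 2 were called higher at week 20 and 6 at week 48 (medians 0.68 and 1.23), and of 6 neutrophil markers 1 and 3. Peretinoin-fed Tg replicate 1 at week 48, which carries muscle RNA, was lowest of its group in Cfp (71.1), in all 3 C1q chains (546.7, 393.9 and 467.9) and in C3ar1 (178.2). Its pan-macrophage level was 9.37 and that of the endothelial markers 7.84, against at least 10.9 and 8.81 in the other 4 arrays of that group. The part of cell content in these values was not tested.

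**Figure D2:**
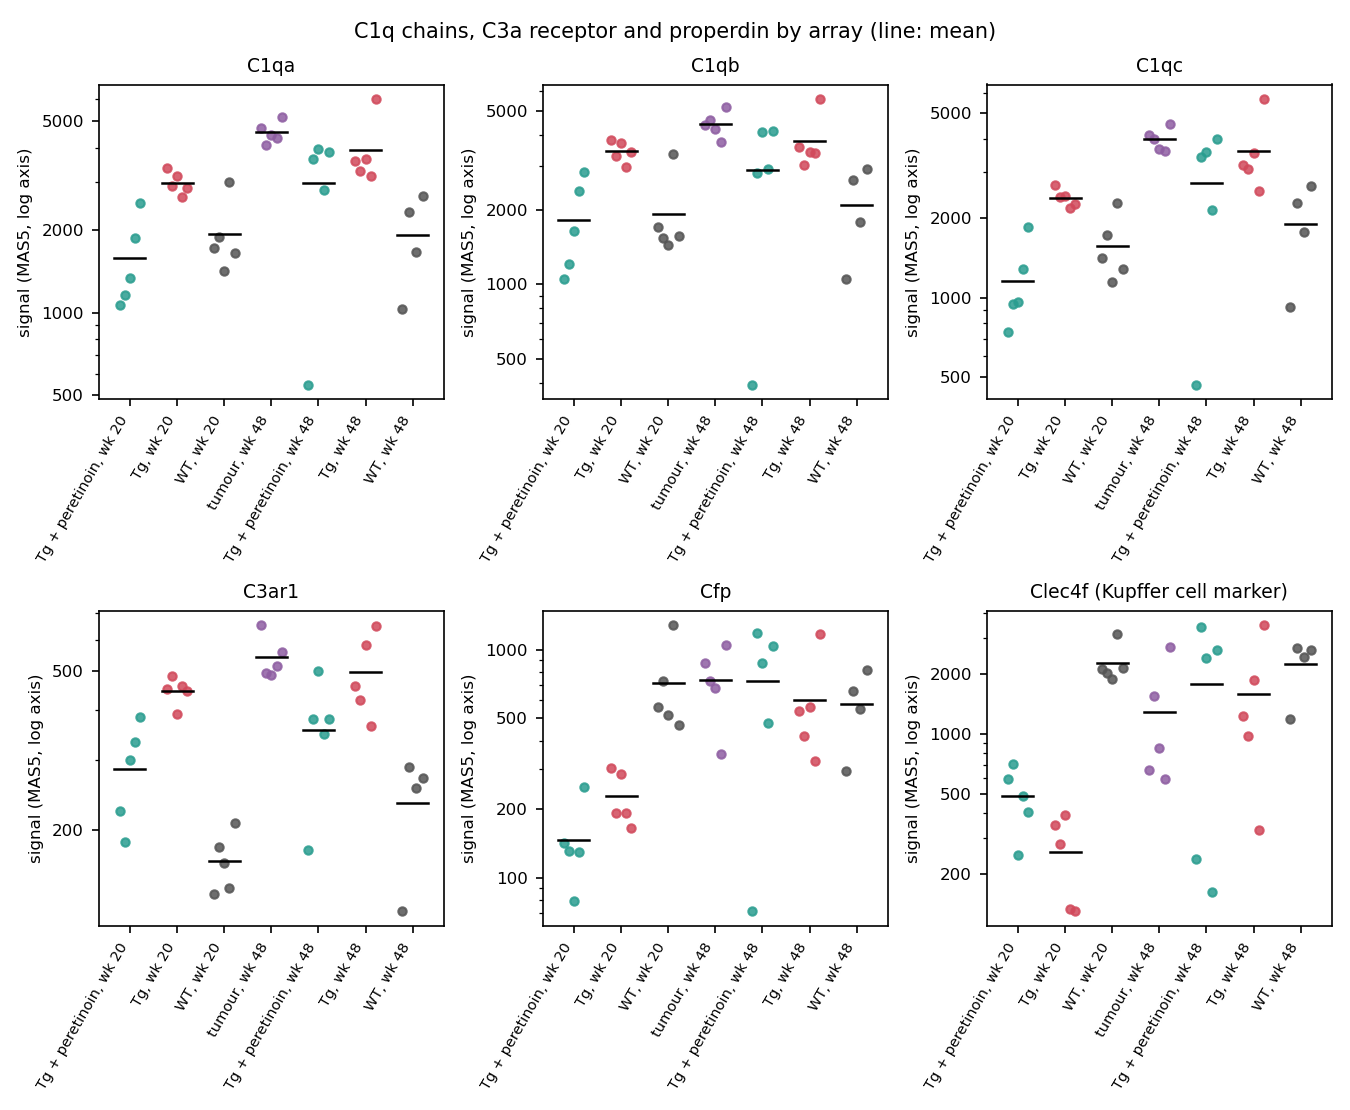
MAS5 signal on a log axis of the 3 C1q chains, C3ar1, Cfp and the Kupffer cell marker Clec4f in every array of the 7 groups, with lines at the means. C3ar1 is higher in every Tg than in every WT liver at both weeks, Cfp and Clec4f are lower in every Tg liver at week 20 and overlap with WT livers at week 48, and 1 peretinoin-fed array at week 48 is low in the 5 complement genes.

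Mbl1 and Mbl2, the lectins on the list that start complement, are mannose-binding proteins of hepatocytes. Mbl1 had the smallest p of the 41 genes at week 20. Its signals were 4411.7, 5498, 4511.4, 5790.5 and 5685.9 in Tg livers and 9089.7, 7875.1, 10797.8, 11471.2 and 9951.5 in WT livers, with no overlap. It fell by 0.92 ± 0.13 on the log2 scale (adjusted p = 2.69e-06), a call that held under each of the 10 alternatives and each left-out array. At week 48 Mbl1 had signals of 6639.7, 7673.4, 8452.7, 6516.1 and 8277 in Tg livers and 9580.4, 9753.2, 9729.5 and 9344.9 in WT livers. The groups again did not overlap, and the change of -0.36 ± 0.14 did not pass (adjusted p = 0.0598), although it did with only the groups compared (adjusted p = 0.0155) and without Tg replicate 3 (-0.41, adjusted p = 0.0473). The difference between the weeks of 0.56 ± 0.19 did not pass either (adjusted p = 0.208). Mbl2, the second mouse lectin of this kind, had means of 16463 ± 1996 in Tg and 18017 ± 1555 in WT livers at week 20 (SD, n = 5 and 5), and of 13820.2 ± 1479 in Tg and 13602 ± 1003 in WT livers at week 48 (n = 5 and 4), with changes of -0.13 and 0.02 that did not pass. The acute phase markers, of which 4 of 10 were called lower at week 20 (median -0.38) and 2 of 10 at week 48 (median 0.04), are given beside these values, and their part was not tested.

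Among the initiating proteases, Masp2, the lectin pathway enzyme that cleaves C4 and C2, had signals of 2463.3, 2893, 2933.5, 3174.3 and 2824.6 in Tg livers at week 20 and 4145.1, 4159.6, 4475.2, 5293.5 and 4618 in WT livers. It fell by 0.66 ± 0.14 (adjusted p = 0.000939), and at week 48 by 0.62 ± 0.15 (adjusted p = 0.00341), with no overlap at either week. Without the arrays that carry another tissue the week 48 change was -0.43 and did not pass (adjusted p = 0.0731). The second probe set of Masp2 had changes of -0.10 and -0.19 that did not pass. C1ra, the protease next to C1q, had changes of -0.0024 ± 0.14 at week 20 and -0.18 ± 0.15 at week 48. C2, the protease part of the classical C3 convertase, had changes of 0.14 ± 0.16 and 0.13 ± 0.17. Neither gene passed at either week.

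Masp1 encodes a lectin pathway protease, and by alternative splicing of its RNA also MASP-3 and an inhibitor. Its probe sets went in opposite directions. The brightest, 1419677_at, which stood for the gene, had signals of 3530.8, 3354.1, 3662.1, 2987.2 and 3546.9 in Tg livers and 4589.7, 5296.3, 5465.3 and 4814.1 in WT livers at week 48. It fell by 0.56 ± 0.15 (adjusted p = 0.00736) with no overlap, and its change at week 20 was -0.34 ± 0.14 (adjusted p = 0.0821), which passed without WT replicate 1 or 4 or Tg replicate 3 (-0.45 to -0.41). Under median centring this probe set was also called lower at week 20 (-0.47, adjusted p = 0.0281). Probe set 1425985_s_at had 1953.2, 1382.7, 1819, 1149.5 and 1633.9 in Tg livers and 779, 848, 967.5 and 1024.8 in WT livers at week 48, again with no overlap but in the other order. In a fit of all 27022 kept probe sets it rose by 0.66 ± 0.20 at week 20 and 0.78 ± 0.21 at week 48 (adjusted p = 0.0192 and 0.0097). Probe set 1438602_s_at rose by 0.84 ± 0.20 and 0.61 ± 0.21 (adjusted p = 0.0026 and 0.0392), and 1438603_x_at rose by 0.61 ± 0.21 at week 20 (adjusted p = 0.0403), with 0.41 ± 0.23 at week 48 (adjusted p = 0.222). Another probe set, 1455346_at, was dim and did not pass. Averaged over its kept probe sets, Masp1 had a change of 0.19 at week 48, the opposite sign. The sources used here do not say which transcripts each probe set detects, so no direction is given for the gene.

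**Figure D3:**
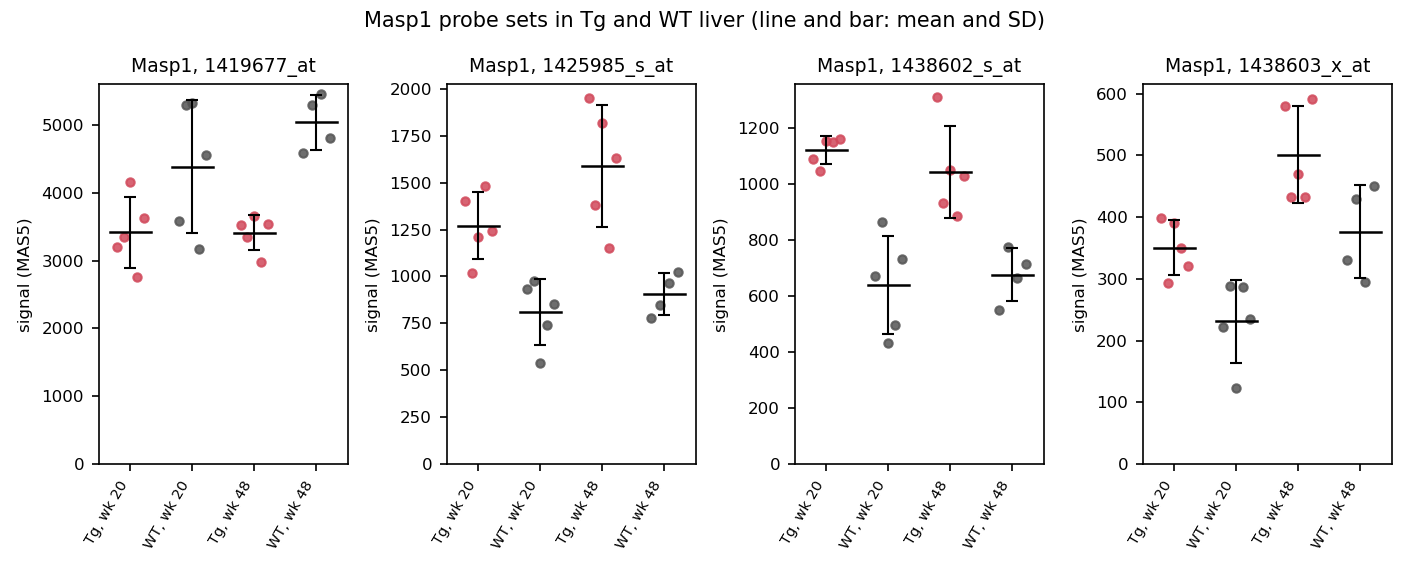
MAS5 signal of 4 Masp1 probe sets in every Tg and WT liver at week 20 and week 48, with means and SD. At week 48 probe set 1419677_at is lower in every Tg than in every WT liver, while 1425985_s_at and 1438602_s_at are higher in every Tg liver.

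Of the alternative pathway, Cfb, the hepatocyte protease of the C3 convertase, had means of 9919.6 ± 1066 in Tg and 10019.6 ± 984 in WT livers at week 20 (SD, n = 5 and 5) and of 10829.7 ± 1126 in Tg and 11845 ± 1255 in WT livers at week 48 (n = 5 and 4). Its changes of -0.02 (95% interval -0.21 to 0.18) and -0.13 (-0.34 to 0.08) did not pass. Of the inhibitors, Cfi, the protease that inactivates C3b and C4b, ranged over 18842 to 23533 in Tg and 22810.9 to 25637.2 in WT livers at week 20, a change of -0.21 ± 0.08 (adjusted p = 0.0571) that passed without Tg replicate 3 (-0.26, adjusted p = 0.0313). Cfi also passed at that week under median centring (-0.34, adjusted p = 0.0294) and with the upper 40% (adjusted p = 0.0473). At week 48 it ranged over 17285.2 to 22046.3 in Tg and 21215.6 to 25602.8 in WT livers and fell by 0.25 ± 0.09 (adjusted p = 0.0376). That call was lost under 5 of 10 alternatives, quantile normalisation (-0.04) and median centring (-0.17) among them, without the arrays that carry another tissue (-0.18, adjusted p = 0.246), and without WT replicate 2 or 4 or Tg replicate 1, 2 or 4 (-0.25 to -0.20). Serping1, the C1 inhibitor, had changes of -0.21 ± 0.10 and -0.16 ± 0.10 that did not pass, and was called lower at week 20 under median centring (-0.33, adjusted p = 0.0373).

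The terminal components form the membrane attack complex. At week 20 all 5 measured genes had changes below 0 in Tg livers and 3 were called lower, C8a and C8g (chains of C8) and C9, which lines the pore. C8g had signals of 12881.4, 14650.9, 15967.4, 12283.1 and 14918.4 in Tg livers and 16940.5, 18344.1, 20968.8, 26041.5 and 21536.9 in WT livers. It fell by 0.54 ± 0.10 (adjusted p = 0.000127) and at week 48 by 0.60 ± 0.11 (adjusted p = 0.000108), with no overlap at either week and under each of the 10 alternatives. C8a, at 13670.9, 14448.6, 13838.8, 18923.9 and 20117.1 in Tg livers and 21233.9, 26483.5, 25205.8, 22459.2 and 22197.7 in WT livers, fell by 0.55 ± 0.13 (adjusted p = 0.00256). C9, at 12359.6, 14441.9, 12741.1, 15887.9 and 19321 in Tg livers and 19578.6, 20299.6, 29004.3, 21159.9 and 20460.1 in WT livers, fell by 0.57 ± 0.17 (adjusted p = 0.0127). Under quantile normalisation C8a and C9 kept their sign but did not pass (-0.29 and -0.33), and the C9 call was also lost without WT replicate 3 (-0.47). The C8b change was -0.41 ± 0.17 and missed the threshold (adjusted p = 0.0903), which it passed without Tg replicate 5 (-0.50, adjusted p = 0.0464) and without all arrays that carry another tissue (-0.50, adjusted p = 0.0437). C8b also passed under median centring (-0.53, adjusted p = 0.0472) and with only the groups compared (adjusted p = 0.0494). At week 48, C8a (-0.28 ± 0.14), C8b (-0.29 ± 0.19) and C9 (-0.14 ± 0.18) did not pass.

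C6, which binds C5b first, divided the Tg livers of week 20. Its signals were 3810.6, 4087.2, 2577.9, 7650 and 8496.5 in Tg replicates 1 to 5, and 6394, 5843.2, 7312.3, 5888.2 and 6798.5 in WT livers. Replicates 1, 2 and 3 lay below every WT liver and replicates 4 and 5 above every WT liver. The change over the group was -0.41 ± 0.22 and did not pass (adjusted p = 0.176), and it passed without replicate 5 (-0.62, adjusted p = 0.0312) and without all arrays that carry another tissue (-0.62, adjusted p = 0.0368). C8a, C8b, C9 and F11 (factor XI) had the same 2 Tg replicates highest, with C8b at 6405.6, 5676.2, 6241.9, 8941.1 and 9235.9 and F11 at 2298, 1998.9, 2368.3, 4222.8 and 3166.5. Mbl1 (5790.5 and 5685.9, next 5498) and Klkb1, plasma prekallikrein (6854.5 and 6330.6, next 5958.4), had them highest too. The share of all genes with this order was not counted. Hsd3b5, which makes a male-biased steroid enzyme, had 28.8, 12.5, 14, 6823.5 and 2440.7 in the same order of Tg livers, against 12010.3, 10139.8, 15183.8, 11209.8 and 20919.2 in WT livers. The mean log2 signal of the male-biased genes was 9.497, 10.005 and 9.154 in Tg replicates 1 to 3 and 12.69 and 12.352 in replicates 4 and 5, against 13.014 to 13.75 in WT livers. The mean of the 4 female-biased genes measured was 6.415, 5.939 and 6.248 in Tg replicates 1 to 3 and 5.928 and 5.829 in replicates 4 and 5. In WT livers it was 5.788 to 6.553. Of the 7 male-biased genes, all were called lower at week 20 and 6 at week 48, and their part in the C6 values was not tested. At week 48 C6 ranged over 6477.5 to 8695.8 in Tg and 4612.9 to 6729.6 in WT livers, a change of 0.28 ± 0.23 that did not pass, and Hsd3b5 ranged over 68.9 to 914.1 in Tg and 9939.2 to 17380 in WT livers.

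Coagulation starts with F3, tissue factor, a membrane protein of stromal and perivascular cells. It was higher in Tg livers at both weeks. At week 20 F3 had signals of 382.5, 294.9, 286, 390.8 and 344.9 in Tg livers and 132, 227, 177.9, 166.5 and 225.1 in WT livers, and rose by 0.83 ± 0.19 (adjusted p = 0.00144). At week 48 it had 252.3, 236.6, 250.7, 357.6 and 166.3 in Tg livers and 121.5, 80.2, 99.1 and 141.8 in WT livers and rose 2.10-fold (1.07 ± 0.20, adjusted p = 0.000184). The groups did not overlap at either week, and both calls held under each of the 10 alternatives and each left-out array. Beside it, 7 of 9 markers of stellate cells and fibroblasts were called higher at week 20 and 8 of 9 at week 48 (medians 2.14 and 1.87), and their part in the F3 values was not tested.

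Of the 6 hepatocyte clotting factors between tissue factor and fibrinogen, F2 alone was called, and its change was small. F2, prothrombin, ranged over 19184.8 to 24693.8 in Tg and 22371.5 to 27487.5 in WT livers at week 20 and fell by 0.25 ± 0.08 (adjusted p = 0.0158). At week 48 it ranged over 19675 to 21397.4 in Tg and 23675.1 to 26316.2 in WT livers and fell by 0.30 ± 0.08 (adjusted p = 0.00635). The week 20 call was lost without Tg replicate 4 (-0.21, adjusted p = 0.0561) and with only the groups compared (adjusted p = 0.0619), and the week 48 call under median centring (-0.22, adjusted p = 0.18). Under quantile normalisation the F2 changes were 0.03 and -0.08 and did not pass. F7, the partner of tissue factor, had changes of -0.02 and -0.12. F10, the protease that cuts prothrombin, had -0.04 (95% interval -0.20 to 0.12) and -0.02 (-0.19 to 0.15). F9, the haemophilia B factor, had -0.23 and -0.20, and F5, the cofactor of F10, had 0.24 and -0.0013. F11 had -0.38 ± 0.27 and -0.30 ± 0.29. None of these 5 genes passed at either week. F5 was called higher at week 20 under quantile normalisation (0.42, adjusted p = 0.0403) and without WT replicate 2 (0.41, adjusted p = 0.0214). F9, which did not overlap at week 20, was called lower under median centring (-0.36, adjusted p = 0.0321) and with only the groups compared (adjusted p = 0.038).

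Of the contact system, which starts clotting on charged surfaces and frees bradykinin, Klkb1 (plasma prekallikrein) ranged over 5096.2 to 6854.5 in Tg and 6080 to 9985 in WT livers at week 20. It fell by 0.43 ± 0.14 (adjusted p = 0.0265), a call that was lost in 4 of 10 fits that left out 1 array (WT replicates 2 and 3, Tg replicates 1 and 2) (-0.43 to -0.36) and under quantile normalisation (-0.29). At week 48 its change was -0.15 ± 0.15. F12, factor XII, had changes of -0.20 and -0.23, and Kng1, kininogen, of -0.15 and -0.10, and neither passed.

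Fga, Fgb and Fgg encode the 3 chains of fibrinogen, the most abundant clotting protein and an acute phase product of hepatocytes. On the deposited scale Fgb and Fgg fell in Tg livers at both weeks and Fga at week 48, by small amounts, and under quantile normalisation none of these calls held and Fga at week 20 and Fgb at week 48 changed sign. The probe sets of Fga, Fgb and Fgg have mean signals of 31651, 35453 and 27157. Quantile normalisation makes such high ranks alike on every array, so it cannot decide whether so small a fall is one of scaling. At week 20 Fgb had signals of 28010.6, 28827.6, 31196.2, 28461.2 and 32963.6 in Tg livers and 36942.2, 38163.1, 37477.9, 40063 and 40501.4 in WT livers. Fgg had 21636.5, 23762.9, 26125.1, 20579.8 and 24893.7 in Tg livers and 27322.8, 31044.1, 28587.8, 33646.1 and 31732.7 in WT livers. Neither overlapped, and they fell by 0.37 ± 0.09 and 0.38 ± 0.10 (adjusted p = 0.00267 and 0.00408). Fga had 26811.4, 28457.8, 32880.2, 25924.9 and 31236 in Tg livers and 31682.5, 29705.5, 32946.7, 38275.4 and 32309.8 in WT livers, which overlapped, and its change of -0.18 ± 0.10 did not pass (adjusted p = 0.178).

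At week 48 Fga had 30605.8, 27156.7, 25952.9, 29407.5 and 29754.2 in Tg livers and 31404.8, 36586.3, 36031.4 and 36017.4 in WT livers. Fgb had 35125.6, 31937.3, 31280.9, 33570.1 and 36908.8 in Tg livers and 37529.6, 43022.6, 39910.6 and 41865.9 in WT livers. Fgg had 25741.5, 24143.8, 21993.8, 24837.5 and 25957.8 in Tg livers and 27955.9, 33989.4, 31799.6 and 30893.3 in WT livers. No chain overlapped between the groups, and they fell by 0.29, 0.27 and 0.34 (adjusted p = 0.0411, 0.0439 and 0.0156). Quantile normalisation gave 0.12 for Fga (adjusted p = 0.0329, called higher), -0.03 for Fgb and -0.09 for Fgg at week 20, and -0.02, 0.08 and -0.10 at week 48. Without the arrays that carry another tissue, the week 48 changes of Fga (-0.29, adjusted p = 0.0927) and Fgb (-0.25, adjusted p = 0.115) did not pass. Median centring ended all 3 week 48 calls, with -0.21 for Fga, -0.18 for Fgb and -0.26 for Fgg (adjusted p = 0.307, 0.347 and 0.176). With no filter Fga and Fgb did not pass at week 48 (adjusted p = 0.0727 and 0.083). Single arrays also ended these calls. The Fga call was lost without WT replicate 2, 3 or 4 or Tg replicate 2, 3 or 4 (-0.30 to -0.26), the Fgb call without any of these or Tg replicate 1 (-0.28 to -0.24), and the Fgg call without WT replicate 2 (-0.30, adjusted p = 0.0618). F13b, the carrier subunit of the enzyme that cross-links fibrin, had changes of -0.22 and -0.09 that did not pass, and was called lower at week 20 under median centring (-0.35, adjusted p = 0.0217).

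**Figure D4:**
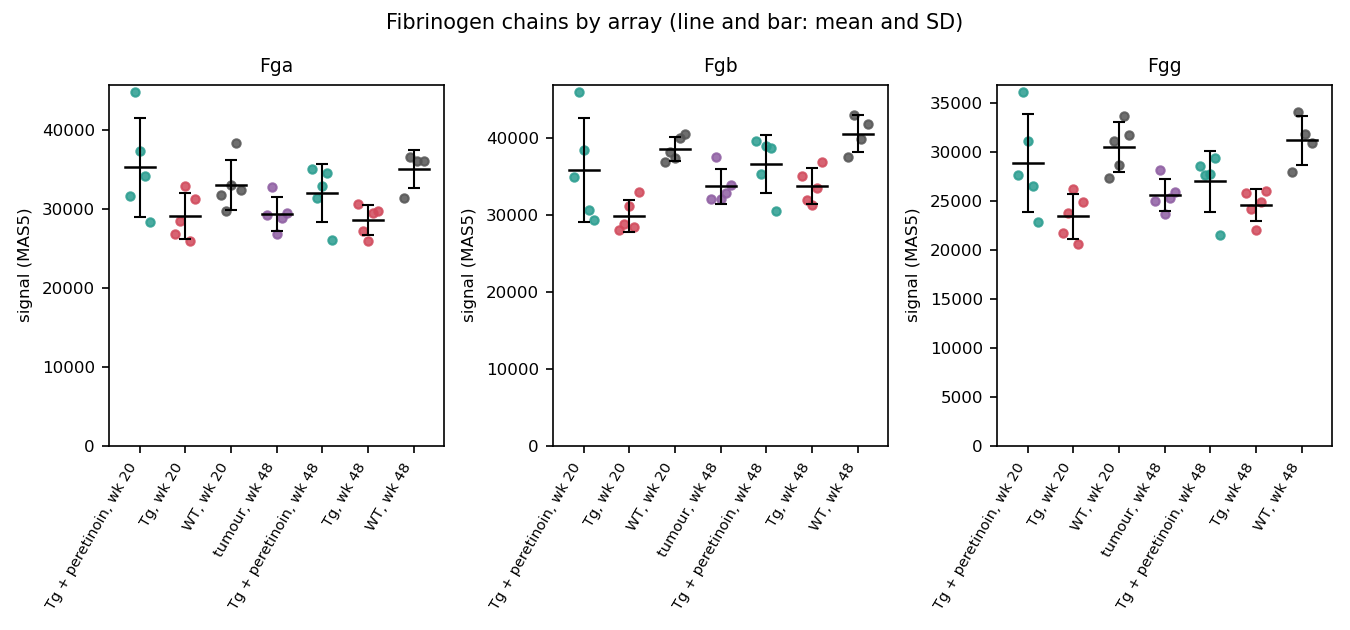
MAS5 signal of the 3 fibrinogen chains in every array of the 7 groups, with means and SD. Tg livers lie below WT livers without overlap for Fgb and Fgg at week 20 and for all 3 chains at week 48 on the deposited scale. Under quantile normalisation, not drawn here, the log2 changes of Fga at week 20 (0.12) and of Fgb at week 48 (0.08, not called) are above 0. Peretinoin-fed replicate 2 at week 20 holds the highest signal of each chain.

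Plg, plasminogen, which yields the protease that dissolves fibrin, ranged over 22558.2 to 25884.1 in Tg and 26418 to 32114.8 in WT livers at week 48 and fell by 0.30 ± 0.09 (adjusted p = 0.0204). That call was lost without WT replicate 2 or 3 or Tg replicate 4 (-0.27 for each) and without the arrays that carry another tissue (-0.26, adjusted p = 0.0926). Quantile normalisation (-0.05, adjusted p = 0.633) and median centring (-0.22, adjusted p = 0.225) ended it as well. Its change at week 20 was -0.12 ± 0.09 (adjusted p = 0.344), and under quantile normalisation it was 0.16 and was called higher (adjusted p = 0.0475). Serpinf2, the plasmin inhibitor, had changes of -0.0053 (95% interval -0.21 to 0.20) and -0.13 (-0.35 to 0.09) that did not pass.

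Of the 5 anticoagulants, Pros1 rose at both weeks, Thbd rose at week 20 and Serpinc1 fell at both weeks. Pros1, protein S, the cofactor of activated protein C, which hepatocytes, endothelium and macrophages make, had signals of 2501, 2346.9, 2232.4, 2359.1 and 2197.8 in Tg livers and 1371.6, 1730.9, 1599.8, 1107.9 and 1064 in WT livers at week 20. At week 48 it had 2945.5, 3049.1, 3134.9, 2194.7 and 3102.7 in Tg livers and 1347, 1529.7, 1558 and 1673.8 in WT livers. Every Tg liver was above every WT liver at both weeks, and Pros1 rose by 0.78 ± 0.14 and 0.90 ± 0.15 (adjusted p = 0.00015 and 5.96e-05). Both calls held under each of the 10 alternatives and each left-out array. Thbd, thrombomodulin, which on endothelium turns thrombin towards protein C, had signals of 428.8, 379, 308.1, 431.1 and 318.5 in Tg livers and 217.3, 205.7, 263.7, 281.3 and 193.4 in WT livers at week 20. It rose by 0.65 ± 0.23 (adjusted p = 0.0377) with no overlap, but 6 of the 10 fits that left out 1 array ended the call, with WT replicates 1, 2 and 5 and Tg replicates 1, 2 and 4 (0.59 to 0.64, adjusted p between 0.0645 and 0.0899). Quantile normalisation (0.45), median centring (0.52) and no filter (0.65, adjusted p = 0.0529) ended it too. At week 48 its change was 0.50 ± 0.24 (adjusted p = 0.149).

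Serpinc1, antithrombin, ranged over 24634.5 to 28552 in Tg and 29162.3 to 37503.2 in WT livers at week 20 and fell by 0.33 ± 0.08 (adjusted p = 0.00278). At week 48 it ranged over 26145.9 to 29601.7 in Tg and 30058.9 to 34349.3 in WT livers and fell by 0.23 ± 0.09 (adjusted p = 0.0485). Quantile normalisation gave -0.02 at week 20 and 0.05 at week 48, and neither passed. The week 48 call was also lost without WT replicate 2, 3 or 4 or Tg replicate 1, 2, 3 or 4 (-0.24 to -0.21), without the arrays that carry another tissue (-0.22, adjusted p = 0.133) and under median centring (-0.15, adjusted p = 0.427). With no filter it did not pass either (adjusted p = 0.0922). Proc, protein C, had changes of -0.13 and -0.24, and Serpind1, heparin cofactor II, of -0.19 and -0.22, and neither passed. Proc was called lower at week 48 with only the groups compared (adjusted p = 0.0487). 

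The transgene effect at week 48 was also set against that at week 20. By limma's test of this difference 0 of the 41 genes were called, beside 0.275% of all genes, and 3 had an unadjusted p under 0.05 (13.2% of all genes). These were Mbl1 (0.56 ± 0.19), Cfp (1.52 ± 0.68) and C6 (0.69 ± 0.32, adjusted p = 0.352), all with the higher change at week 48.

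The next question was whether tumours differed from the Tg livers of the same week. By limma's test 0 of the 41 genes were called, beside 0% of the 13099 genes. At an unadjusted p under 0.05, 2 of 41 genes stood out, both lower, beside 8.21% of all genes. Mbl2 had signals of 11375.9, 14083.1, 7921.2, 10199 and 5221.2 in tumours and 14719.5, 12419.4, 14035.1, 12247 and 15679.9 in Tg livers, a change of -0.57 ± 0.15 (adjusted p = 0.225). Tumour replicates 1, 3, 4 and 5 lay below every Tg liver and replicate 2 within their range. F7 had signals of 2158, 2156.4, 2110.2, 2544.1 and 1795.9 in tumours and 2697.6, 2538.2, 3103.2, 2721.9 and 2936.9 in Tg livers, a change of -0.38 ± 0.12 (adjusted p = 0.326), with 1 tumour inside the range of the Tg livers. The fibrinogen chains had changes of 0.04 (95% interval -0.16 to 0.24) for Fga, -0.0014 (-0.18 to 0.18) for Fgb and 0.06 (-0.14 to 0.26) for Fgg. C1qa had signals of 4721.5, 4078.9, 4447, 4345.6 and 5185.2 in tumours, within the 3143.6 to 6033.8 of the Tg livers, and a change of 0.25 (95% interval -0.46 to 0.95). The ranges of all 41 genes overlapped between tumours and Tg livers, whereas 1.98% of all genes did not overlap.

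The peretinoin diet was compared with the basal diet in Tg mice. The basal Tg arrays are those set against WT livers above, so the changes of both comparisons share them. At week 20, Mbl1 was the 1 gene of 41 that was called, and it was higher in peretinoin-fed livers, beside 2.89% of all genes in either direction, 1.64% higher and 1.24% lower. Its signals were 8688.3, 9064.3, 8847.3, 7888.1 and 5523.6 in peretinoin-fed livers and 4411.7, 5498, 4511.4, 5790.5 and 5685.9 in Tg livers on the basal diet. Peretinoin-fed replicates 1 to 4 were above every basal liver and replicate 5 lay within their range. Mbl1 rose by 0.61 ± 0.13 (adjusted p = 0.0108), a call that was lost without peretinoin-fed replicate 2 (0.56, adjusted p = 0.0523). C1qa had 1064.9, 1159.9, 1335, 1875 and 2522.3 in peretinoin-fed livers, all below the 2655 to 3388.6 of basal livers. C1qb had 1051.4, 1205.4, 1645.7, 2375 and 2835.3 and C1qc had 740.2, 948.2, 961.9, 1286.6 and 1861.9 in peretinoin-fed livers, below the 2970.3 to 3831.6 and the 2187 to 2679.8 of basal livers. C3ar1, at 222.9, 186.5, 300.2, 331.8 and 385.1 in peretinoin-fed livers, also lay below the 391.4 to 485.6 of basal livers. These were the 4 genes of 41 without overlap, all of them below, beside 2.96% of all genes. The changes of -0.97, -1.01, -1.11 and -0.66 did not pass (adjusted p = 0.109, 0.145, 0.0785 and 0.0763).

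Which arrays were fitted changed many of these calls. With every array of these 2 groups and no other group fitted, C1qa, C1qb and C1qc were called lower (adjusted p = 0.0406, 0.0494 and 0.0357). That fit called 4 of the 41 genes, beside 1.75% of all genes. Without the arrays that carry another tissue, which were left out of every group, 8 of the 41 genes were called. This was beside 5.02% of all genes, against 2.89% of all genes with every array. C1qa (-1.18), C1qb (-1.24), C1qc (-1.31) and C3ar1 (-0.85) were lower and Mbl1, C6 (0.90), C8a (0.56) and C9 (0.82) higher in peretinoin-fed livers (adjusted p of the 4 lower genes between 0.0055 and 0.0224). Leaving out peretinoin-fed replicate 5 alone, which carries muscle RNA, gave 11 calls, beside 6.71% of all genes. The fibrinogen chains were among them (0.34 for Fga, 0.32 for Fgb and 0.37 for Fgg). Leaving out peretinoin-fed replicate 2 gave 0 calls (0.389% of all genes), Tg replicate 4 gave 3 (3.34%) and Tg replicate 5 gave 4 (3.62%). In C6, peretinoin-fed livers had 7110.1, 7117, 9510.2, 9528.7 and 6101.1 against 3810.6, 4087.2, 2577.9, 7650 and 8496.5 in basal livers, where basal replicates 4 and 5 lay inside the peretinoin-fed range and replicates 1 to 3 below it, a change of 0.68 ± 0.22 (adjusted p = 0.0734). Beside these values, 0 of 8 markers of recruited monocytes and macrophages passed, with a median of -0.72, and 0 of 9 pan-macrophage markers, with a median of -0.52. Hsd3b5 had 2808.9, 3474, 17097.3, 9839 and 284.2 in peretinoin-fed livers and 28.8, 12.5, 14, 6823.5 and 2440.7 in basal livers, and the male-biased genes had a median change of 0.89 with 1 of 7 called higher. The part of these markers was not tested.

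At week 48, 0 of 41 genes were called beside 0.725% of all genes, and 12 had an unadjusted p under 0.05, 10 of them higher, beside 14% of all genes. C1qa had 546.7, 3643.1, 3954, 2812.5 and 3867.7 in peretinoin-fed livers, and its change of -0.64 ± 0.35 did not pass (adjusted p = 0.418). Serpinf2 was the 1 gene without overlap, at 15022.3 to 17509.2 in peretinoin-fed and 12063.5 to 14683.6 in basal livers (adjusted p = 0.296), beside 0.855% of all genes above.

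With age, C2 was lower at week 48 than at week 20 in both genotypes. In WT livers it had 2612.8, 2693.4, 2599.7 and 2868 at week 48 and 4766.2, 4748.4, 4449.2, 3249.2 and 4359.3 at week 20, with no overlap, and it fell by 0.66 ± 0.17 (adjusted p = 0.0187). That call was lost without WT replicate 3 of week 48 (-0.65, adjusted p = 0.0516) and with the mean of its probe sets (-0.46, adjusted p = 0.0561). In Tg livers it had 2475.8, 3181.9, 3784.4, 1942.1 and 3799.4 at week 48 and 5074.7, 4287, 4857.6, 4914.7 and 4411.1 at week 20, and fell by 0.67 ± 0.16 (adjusted p = 0.00538). F3 fell by 0.67 ± 0.20 in WT livers (adjusted p = 0.0365), a call that 3 of 10 alternatives and 5 of 9 left-out arrays (WT replicates 2, 3 and 5 of week 20, and 2 and 3 of week 48, -0.68 to -0.55) ended, and had a change of -0.43 ± 0.19 in Tg livers (adjusted p = 0.117). Mbl1 rose by 0.54 ± 0.13 in Tg livers (adjusted p = 0.00508) with no overlap, and had -0.02 ± 0.14 in WT livers. Thus 2 of 41 genes were called in WT livers, both lower, beside 6.88% of all genes (2.41% higher and 4.47% lower), and 2 in Tg livers, 1 in each direction, beside 15.7% (5.99% higher and 9.76% lower). Cfp was called higher at week 48 than at week 20 in Tg livers in 4 of the 10 alternatives (1.24 to 1.37), and otherwise its change of 1.24 ± 0.47 did not pass (adjusted p = 0.0648), although the groups did not overlap. Without the arrays that carry another tissue, C6 (0.81, adjusted p = 0.0181), F7 (-0.36, adjusted p = 0.045) and Cfp (1.33, adjusted p = 0.0116) were called. Leaving out single Tg arrays added calls of C6 (0.74 without replicate 4 of week 20, 0.78 without its replicate 5), F5 (-0.45 and -0.50, without replicate 4 of week 20 and replicate 1 of week 48), F7 (-0.37, without replicate 5 of week 20) and F3 (-0.56, without replicate 4 of week 48). Age and the time of sampling or hybridisation cannot be told apart.

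The other genes of both pathways held larger changes. Of 20 other complement genes tested, 3 were called higher and 6 lower at week 20, and 5 higher and 2 lower at week 48. Of all genes, 15.8% were higher and 7.87% lower at week 20, and 14.2% higher and 6.58% lower at week 48, so that several of these counts are near the background. Of 22 other coagulation genes tested, 5 were higher and 3 lower at week 20, and 6 higher and 3 lower at week 48. Colec10 in Tg livers and Plat in WT livers had signals near the median of an array, so the sizes of their log2 changes depend on the offset of 16. Colec10, a collectin of the lectin pathway, had means of 81.5 ± 45.1 in Tg and 1035 ± 245 in WT livers at week 20 and of 107 ± 59.8 in Tg and 1028 ± 99.1 in WT livers at week 48. It fell by 3.51 ± 0.45 and by 3.23 ± 0.48 (adjusted p = 4.99e-07 and 9.27e-06; SD, n = 5, 5, 5 and 4). Plat, the tissue plasminogen activator, had means of 529.6 ± 82.7 in Tg and 59.1 ± 32.3 in WT livers at week 20 and of 757 ± 187 in Tg and 95.4 ± 36.3 in WT livers at week 48, and rose by 2.98 ± 0.28 and 2.83 ± 0.29 (adjusted p = 1.11e-09 and 3e-08). F2r, the thrombin receptor, rose by 1.29 and 0.96, and Itgax, a chain of complement receptor 4, by 1.91 and 1.98. Gas6, a relative of protein S that binds Axl and Mertk, rose by 1.55 at week 20, and Anxa2, a cell surface receptor for plasminogen and Plat, by 1.73 at week 48. Tfpi2, an inhibitor of serine proteases, fell by 1.06 at week 20. Ggcx, the enzyme that gives vitamin K-dependent factors their calcium-binding residues, fell by 0.75 at week 20 and 0.65 at week 48. Cfhr2, of the factor H family, fell by 0.47 at week 20. Lman1, a receptor that carries factors V and VIII out of the endoplasmic reticulum, fell by 0.52, and Vtn, vitronectin, by 0.29 at week 48.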

How the data were processed

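Each of the 34 samples was hybridised to 1 Affymetrix Mouse Genome 430 2.0 array. The deposited intensity of each probe set is the linear MAS5 signal of the authors, scaled so that the trimmed mean of every array is alike, per the submitters' processing notes and the values themselves. The members of the list, the marker lists and the tests were chosen with earlier results of these data known.

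Signals were taken as log2(signal + 16). Probe sets in the upper 60% by mean signal that carried 1 gene symbol were kept, and the one with the highest mean stood for its gene (13099 genes). Of 45101 probe sets, 34945 carried 1 symbol, 932 several and 9160 none. One model with 7 groups (27 residual degrees of freedom) was fitted in R 4.3.3 with limma 3.58.1, with a mean-variance trend, tested by moderated statistics on the log2 scale and adjusted over all genes by Benjamini-Hochberg. A change is the first group minus the second, with its SE. The genes named were all 41 members, and of the other pathway genes the 4 called genes of smallest p in each direction and week. Levels were not compared between genes. The number of arrays limits the precision. The fit was tested on simulated data. Alternatives were offsets of 1 and 64, no filter, the upper 40%, quantile normalisation, median centring, the mean of a gene's probe sets, only the groups compared, a replicate block, leaving out arrays with another tissue, and leaving out each array.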

Additional observations from a re-analysis of the deposited data

Results flagged for a closer look

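Of 287 sets of values (41 genes in 7 groups), 20 held 1 array whose gap to the nearest of its group exceeded Dixon's 95% critical value, and chance alone marks about 1 set in 20. The cause was not tested for any of them.

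Among the myeloid genes, C1qa was high in Tg replicate 5 of week 48 (6033.8, next 3644.9) and low in peretinoin-fed Tg replicate 1 of week 48 (546.7, next 2812.5), and C1qb stood apart in the same arrays (5603.3, next 3581.5, and 393.9, next 2804.9). C1qb was also high in WT replicate 4 of week 20 (3345.5, next 1697.1). C3ar1 was low in WT replicate 1 of week 48 (125.3, next 255), and C5ar1 in peretinoin-fed Tg replicate 2 of week 20 (22.4, next 48.6).

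Among the other complement genes, C1ra was low in Tg replicate 4 of week 48 (3395.2, next 5082.8), the array with muscle and acinar RNA. C2 was low in WT replicate 4 of week 20 (3249.2, next 4359.3), Mbl1 in peretinoin-fed Tg replicate 5 of week 20 (5523.6, next 7888.1), an array with muscle RNA, and C9 was high in WT replicate 3 of week 20 (29004.3, next 21159.9).

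Among the coagulation genes, Pros1 was low in Tg replicate 4 of week 48 (2194.7, next 2945.5), and Fga in WT replicate 1 of week 48 (31404.8, next 36017.4). Fgg was low in peretinoin-fed Tg replicate 5 of week 48 (21520.2, next 27591.4) and Plg in WT replicate 1 of week 20 (23914.4, next 27461.4). F9 was low in Tg replicate 1 (9220, next 9452.8) and high in WT replicate 3 of week 20 (12217.6, next 11013.9). Peretinoin-fed Tg replicate 2 of week 20 was high in F10 (12443.9, next 10703.2) and Serpind1 (12305.2, next 10107.7), and WT replicate 4 of week 48 was high in Serpind1 (16201.6, next 13748.8).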

How the results depend on the processing

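Over the 41 genes and 8 comparisons, alternatives other than left-out arrays added a call in 57 cases, ended one in 41, gave the opposite sign where either value was called in 6 and left 3168 on their side of the threshold. The 6 were Masp1 at week 48 with the mean of its probe sets (0.19), and, under quantile normalisation, F2 (0.0259), Fga (0.12) and Plg (0.16) at week 20 and Fgb (0.0788) and Serpinc1 (0.0453) at week 48. Counts of called members moved by over 1.5 times as follows. For Tg against WT at week 48, 14 became 7 under quantile normalisation and 8 under median centring. The shares of all genes called there were 20.8% and 20.2%, against 20.8% in the main fit. For peretinoin at week 20, 1 became 3 with the upper 40%, 4 with only the groups compared and 8 without arrays of another tissue. The shares of all genes called were 5.44%, 1.75% and 5.02%, against 2.89% in the main fit. For WT livers of week 48 against week 20, 2 became 1 with an offset of 64, with no filter and with the mean of probe sets (6.75%, 4.74% and 5.57% of all genes, against 6.88%). For Tg livers of week 48 against week 20, 2 became 8 under quantile normalisation, 5 under median centring, 6 with only the groups compared, 4 with the replicate block and 5 without arrays of another tissue. In the same order, 16.9%, 13.3%, 19.5%, 17.1% and 13.3% of all genes were called, against 15.7% in the main fit. Leaving out 1 array gave 13 to 17 calls for Tg against WT at week 20, 8 to 13 at week 48, 0 to 11 for peretinoin at week 20, 0 for peretinoin at week 48, 0 for tumours, 0 to 2 for age in WT livers, 2 to 4 for age in Tg livers and 0 for the difference between weeks. Of all genes, these fits called 19.2% to 26% for Tg against WT at week 20 and 15.8% to 20.1% at week 48. They called 0.389% to 6.71% for peretinoin at week 20, 3.95% to 6.52% for age in WT livers and 11.5% to 15.5% for age in Tg livers. The cause was not tested. Of all genes called for Tg against WT, 66.8% were higher at week 20 (54.7% under quantile normalisation and 46.7% under median centring) and 68.3% at week 48 (84.5% under median centring).

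Nothing in the labels ties arrays of 1 number across groups, and not every same-numbered pair correlated above 0.1, so the numbers were not used as pairs. Over 99 pairs of same-numbered arrays the correlation of deviations ran between -0.206 and 0.432 (median 0.036, 24 over 0.1), beside a median of -0.012 and 48 over 0.1 in 396 pairs of different numbers. Averaged by number over the other groups, the correlation was highest for the array's own number in 11 of 34 arrays. With the number as a block, 15 members were called for Tg against WT at week 20 and 11 at week 48, where Fga, Fgb and Serpinc1 were lost (adjusted p = 0.0662, 0.0631 and 0.0586). The block called 24.6% of all genes at week 20 and 20.8% at week 48. The number of arrays limits what could be called, and probe sets in the lower 40% by signal were not tested.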
